A study of Homo sapiens with 15 samples.

Results

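The 300 transcript 3' end regions described here carried label in the smallest share of their reads when U2OS cells, which derive from a human osteosarcoma, were pulsed with 4-thiouridine. SLAM-seq alkylates this nucleotide so that new RNA is read with T-to-C conversions, and the labelled share of a region is the percentage of its reads that were counted as T>C reads. Regions had to hold at least 5000 reads over the 12 alkylated libraries, a T>C share under 2% in the libraries made without alkylation, and at most 10% multimapped reads, which 5669 of 68625 regions did. The 300 regions with the lowest mean, over 4 cell cycle phases, of the share in pooled reads were selected, and they carry 290 gene names. The regions were thus chosen by their labelled share, so those shares are given as a description with no test. Their steady-state levels, from all reads of a region, were tested between phases. The same reads entered the choice through the minimum of reads and as the denominator of the share, but regions were not ranked by their level.

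After a short pulse, label marks the RNA made during that pulse, so an mRNA that is replaced slowly carries it in few of its molecules. Messengers for ribosomal proteins, for enzymes of energy metabolism and for structural proteins are known as stable in proliferating cells, whereas those of immediate early and many regulatory genes turn over fast. A read can show a conversion only at a T position, so a read that covers few T positions has fewer chances to be counted as labelled.

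The study held 5 groups of 3 libraries. Per the labels, growing U2OS cells took up 4-thiouridine and EdU, a nucleoside that marks DNA synthesis, for 45 minutes, were fixed with glyoxal and methanol, and were sorted by EdU and DNA content (SYTOX Green) into G1, Early_S, Late_S and G2. RNA of the sorted cells was alkylated and made into 3' end libraries, and the No_alkylation group lacked the alkylation, with no label for the phase of its cells. Synchronised cells are named in the series title, but the protocol is one of sorting from an asynchronous population. The labels do not say whether the 3 libraries of a group came from separate cultures, so p-values measure the spread between these libraries, and in bulk RNA fewer cells that hold a transcript and less of it per cell cannot be told apart.

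Libraries held 16096695 to 21803972 reads in regions. T>C reads were 21.5% to 22.8% of these in G1, 17.9% to 18.9% in Early_S, 9.95% to 10.1% in Late_S, 9.77% to 10.4% in G2 and 1.00% to 1.03% without alkylation. The mesenchymal markers summed to 6734 to 8529 CPM (reads scaled to a common library size) in every library, with VIM at 2246 to 3651, although TWIST1 had 0 reads, COL1A2 had at most 1.77 CPM and RUNX2 had 0.754 to 13.8 CPM. The epithelial markers summed to at most 47.5 CPM and the blood markers to at most 4.99, and no pair of libraries was identical.

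Ribosomal protein and respiratory chain genes gave the most listed members among the 300 regions, and the letters at their start sites are shown because the former share a known feature there, the pyrimidine tract of TOP mRNAs. The windows run from 20 bases before to 10 bases from the start in RefSeq (GRCh38.p14), 5′ to 3′ on the gene's strand, and capitals mark the motif CTTTC, or its variants CTTTT and CTTCC, or the motif CTCTT, all searched on that strand from 5 bases before to 10 bases from the start and allowed to overlap. The 7 ribosomal protein genes with a listed promoter are followed by the 3 respiratory chain genes whose window held a match. In NDUFB1 the match lies wholly before the start, so it is not part of an RNA that begins there.
RPL37A (chr2:216498824-216498853, plus strand): cctgcgcaccgcgtctCTTCCTTTCtgggc
RPS3 (chr11:75399498-75399527, plus strand): cttccgcccgcgagccaCTTCCTTTCcttt
RPS19 (chr19:41860235-41860264, plus strand): gcccgggaaaccccgtcgttccCTTTCccc
RPL27A (chr11:8682772-8682801, plus strand): gagacttggcgaaggcCTTCCTTTTtcgtc
RPS12 (chr6:132814549-132814578, plus strand): ggcatgcgtgcggatgaggcCTCTTTCcct
RPL27 (chr17:42998399-42998428, plus strand): cctcaccggggtgaaaggttagcggaagtg
RPLP1 (chr15:69452798-69452827, plus strand): gctgcgtataggcgcgagagcccCTTTCct
COX4I1 (chr16:85799675-85799704, plus strand): ctccgcggcgcggccttgctCTCTTCCggt
NDUFB1 (chr14:92121697-92121726, minus strand): gtcccgaggtcgcagCTTCCactggcgcgg
ATP5L (chr11:118401586-118401615, plus strand): gacggggtcctgcagcgggtcCTTCCggcg

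A pyrimidine motif lay at the start of 6 of these 7 ribosomal protein genes, as it did in 21 of 29 (72.4%) ribosomal protein genes with an eligible region. Among respiratory chain genes, 3 of 17 members with a listed promoter held it (17.6%), beside 9 of 51 eligible ones (17.6%). Of all 234 member genes with a listed promoter, 31 (13.2%) held it, beside 10.5% of 4342 eligible genes and 8.30% of the 27305 promoters in the table. CCGGAAG, searched on both strands of the 300 listed bases, occurred in 47 of the 234 member promoters (20.1%), beside 22.8% of eligible genes and 10.7% of the table, and in 7 of the 17 respiratory chain members (41.2%), beside 31.4% of the eligible respiratory chain genes. The CTTCC marked in COX4I1 and ATP5L is part of CTTCCGG, which is CCGGAAG on the other strand. These letters therefore count for both motifs. CCAAT, on both strands, lay in 29.9% of member promoters and 37.0% of eligible ones. TATAAA, 45 to 16 bases before the start on the gene's strand, lay in 1.28% and 1.43%.

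The mean labelled share of the 300 regions ran from 1.46% (APEX1) to 5.04% (ZNF358), with a median of 4.18%, where the 5669 eligible regions had a median of 15.2% and reached 97.1%. The last regions inside the limit were R3HDM1 (5.0327%), NDUFA1 (5.03363%) and ZNF358 (5.03621%), and the first outside were CD99 (5.03999%), PIH1D1 (5.04303%) and CCDC124 (5.04443%), so the border fell inside a dense stretch of values. The members held 5.50% to 6.33% of the reads in regions of an alkylated library but only 1.57% to 1.72% of its T>C reads. Without alkylation they held 4.99% to 5.08% of reads and 2.76% to 2.94% of T>C reads.

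**Figure D1:**
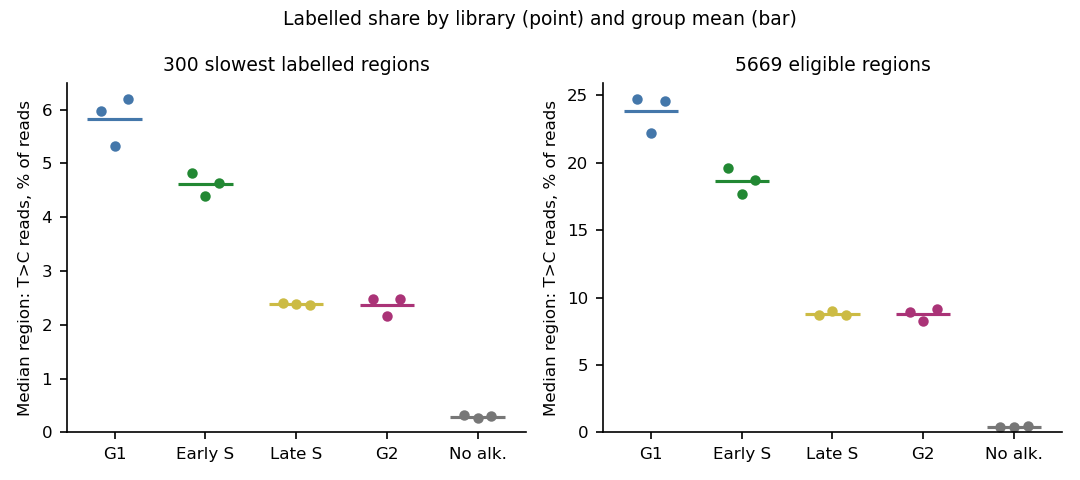
Median labelled share (T>C reads as a percentage of a region's reads) over the 300 slowest labelled regions (left) and over all 5669 eligible regions (right) in each of the 15 libraries, as points, with the mean of each group of 3 as a bar; the vertical axes differ. In both sets the G1 libraries are highest, Early_S follows, and Late_S and G2 lie close together above the libraries without alkylation.

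APEX1, the main AP endonuclease of base excision repair, had the lowest mean share. Its region (hg38, chr14:20455936-20456101, plus strand) showed 0.738%, 0.712% and 1.77% T>C reads in the G1 libraries, 3.5%, 2.92% and 1.22% in Early_S, 3.06%, 0.729% and 0 in Late_S, 0, 1.62% and 0.971% in G2, and 0 in all 3 libraries without alkylation, whose 1212 reads allow a share of up to 0.248%. The phases overlapped, with a G1 mean of 1.07% ± 0.602 and a G2 mean of 0.863% ± 0.815 (SD, n = 3). RABL6, a Rab-like GTPase, was next (chr9:136840154-136840212, plus strand), with 3.19%, 1.99% and 0.884% in G1, 1.18%, 0 and 0.90% in Early_S, 1.70%, 0.725% and 1.42% in Late_S, and 2.96%, 1.41% and 1.12% in G2. Neither region had a phase whose libraries all lay above those of the other phases.

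The other 10 of the 12 lowest regions belonged to SLC12A5 (1.52%), a neuronal potassium chloride cotransporter, DCXR (1.95%), a xylulose reductase, the joined name AC011479.1 and C19orf33 (1.96%), ACAP1 (2.03%), a GTPase activating protein for Arf, FAH (2.06%), the last enzyme of tyrosine breakdown, IQCE (2.17%), COPE (2.17%), a coatomer subunit, EIF4EBP1 (2.22%), which restrains cap-dependent translation, FIBP (2.23%) and OCIAD2 (2.26%). Single libraries stood apart in several of these thinly read regions. IQCE, for example, had 8.79%, 1.38% and 0 in its G1 libraries, and ACAP1 had 10.0%, 1.02% and 4.90% in Early_S. Among the 12 regions, 14 values of an alkylated library were 0, from 373 to 1348 reads each, which allows shares of up to 0.223% to 0.804%. Reads carry no molecular identifiers, so such limits cover counting error only. OCIAD2 had 2.16%, 0.873% and 1.65% without alkylation, above its 0.389%, 0 and 0.474% in Late_S.

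**Figure D2:**
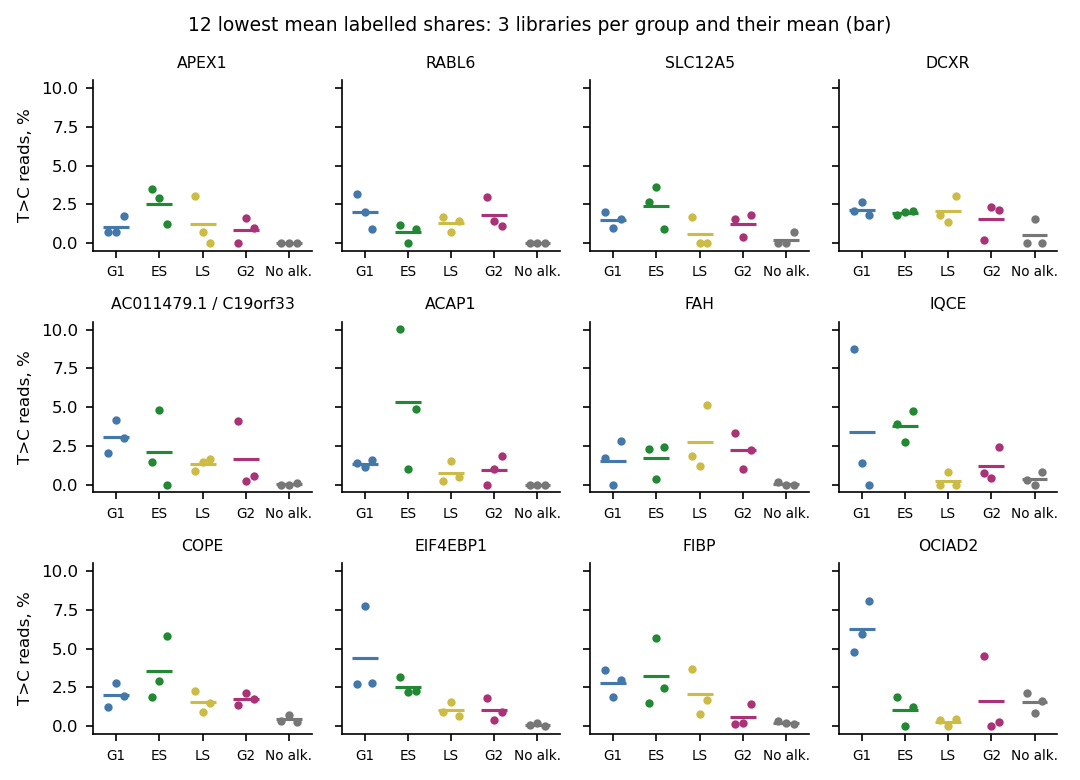
Labelled share (T>C reads as a percentage of reads) of the 12 regions with the lowest mean share, in the 3 libraries of G1, Early_S (ES), Late_S (LS), G2 and without alkylation (No alk.), with the mean of 3 as a bar. The phases overlap in most panels, single libraries such as ACAP1 in Early_S stand apart, and OCIAD2 is lower in Late_S than without alkylation.

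Not every region was separable from the background. In 140 of the 300 regions (46.7%) all 12 alkylated libraries had a higher share than all 3 libraries without alkylation, which held for 89.6% of eligible regions. Phase by phase, this was so for 270 regions in G1 (beside 99.3% of eligible ones), 252 in Early_S (98.5% of eligible ones), 191 in Late_S (63.7%, beside 94.4%) and 184 in G2 (61.3%, beside 92.6%). The summed share of the members without alkylation was 0.573% ± 0.0321 (SD, n = 3), against 6.15% ± 0.156 in G1 and 4.70% ± 0.0667 in Early_S, and 2.90% ± 0.0914 in Late_S and 3.09% ± 0.0405 in G2.

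The members differed from the other eligible regions in length and T content, measures the rule did not use. Their median length was 418 bases, beside 1275 bases in the other 5369, and 89 (29.7%) were under 200 bases long, beside 8.29%. A member read covered a median of 14.1 T positions and a read of the others 19.4, and 47 members (15.7%) were under 10, beside 3.78%. The members made up 19.4% of the 31 eligible regions under 5 covered T positions per read, 18.7% of those at 5 to 10, 12.9% at 10 to 15, 4.15% at 15 to 20 and 1.93% from 20 up. The extremes were TPM1 (1.84 T positions per read), APEX1 (2.01) and RABL6 (2.41) at the low end and PTK7 (41.7), ETFA (29.7) and GALC (27.4) at the high end, so low shares were found at both. Across the 5669 regions, Spearman's rho of the mean share with T positions per read was 0.25, with length 0.28 and with reads -0.21, over points that share libraries. Ranked by conversions per covered T position, a rate that divides by the positions a read covers, 226 of the 300 regions were again among the lowest 300.

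**Figure D3:**
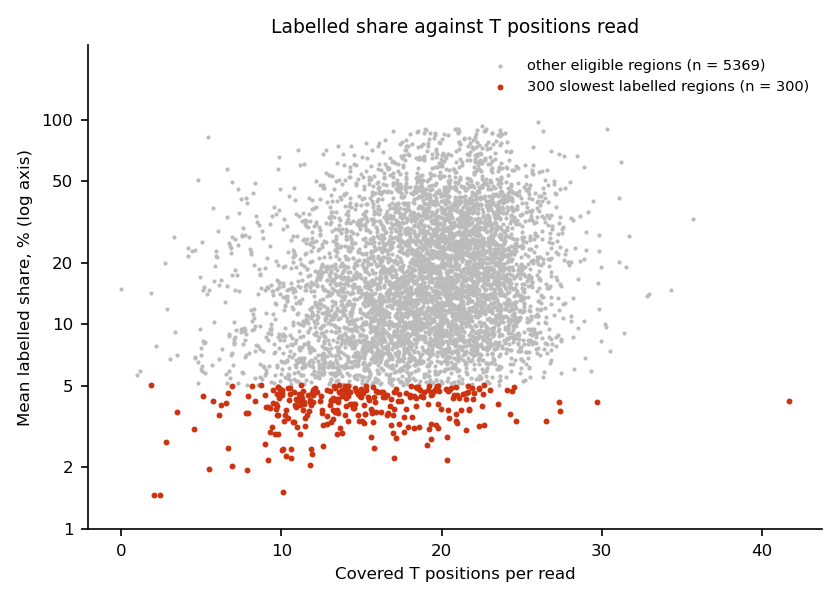
Mean labelled share over the 4 phases (vertical, log axis) against covered T positions per read (horizontal) for the 300 slowest labelled regions and the other 5369 eligible regions, each point a region. The 300 regions lie at or under 5.04% by their choice and are densest between 10 and 20, left of the bulk of eligible regions.

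The shares were also read in libraries left out of the ranking. This is a description and not an independent test, since the limits on reads and multimapped reads still used all 12 alkylated libraries. When the ranking used 8 alkylated libraries and left out those numbered 1, 2 or 3, the 300 regions then chosen had low shares in the 4 left out. Their medians there were 4.37%, 4.20% and 4.34%, where the eligible medians were 15.5%, 14.5% and 15.5%. All 300 lay below the eligible median each time, and 269, 258 and 259 lay among the lowest 10% of eligible regions. The exact membership was less stable, since 201, 185 and 201 of these regions were also among the lowest 300 by the libraries left out. This choice of libraries was added after seeing the data.

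Of the 300 regions, 289 carried a single gene name that matched RefSeq, all protein coding, and 182 of these (63.0%) ended within 10 bases of the gene's end, beside 74.2% of the other eligible regions. Another 63 (21.8%, beside 14.4%) ended more than 1000 bases before it. Whether such a region is an earlier exon, an intron or an alternative last exon was not analysed here. Chromosome 19 held 41 members (10.8% of its eligible regions), chromosome 11 held 33 (8.78%), chromosome 21 held 7 of 52 (13.5%) and chromosome 18 held 0 of 80, where 5.29% of all eligible regions were members.

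Some genes had regions both inside and outside the 300. Of the gene names, 10 had 2 member regions each, among them RPS3, CD63, COL6A2, NDUFV1 and NDUFB2, whereas 42 member regions of 40 genes had an eligible region of the same gene outside the 300. Where a gene had several such regions, the other region was the one with the highest share, so the gap is the widest for that gene. The gap to that other region had a median of 3.07 percentage points and ran from 0.714 to 17.0. The member region had fewer reads in 33 of 42 cases and fewer T positions per read in 31, the other region lay nearer to the gene's end or beyond it in 34, and the conversion rate per T position was lower in the member region in 41. The sign of the gap follows from the choice of members, and the rate follows the share closely (Spearman's rho 0.97 over eligible regions), so these values are a description.

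APEX1 showed the widest such gap. The region at the end of the gene (chr14:20457141-20457772) had a mean share of 18.5%, 44404 reads and 23.3 T positions per read, against 1.46%, 5064 reads and 2.01 T positions in the member region. ERGIC2, of the cycling compartment between endoplasmic reticulum and Golgi, had 4.44% in a region of 53 bases (chr12:29341734-29341786) and 17.0% at its end (chr12:29337352-29341218). TPM1, a tropomyosin, had 5.03% and 17.5%, with 1.84 and 20.9 T positions per read. In ITSN1, an endocytic scaffold, the member region instead covered more T positions (20.8 per read, share 4.50%) than the upstream region with 14.7% (5.50 per read). NEFL, the light neurofilament chain, had 3.73% and 13%, and DNPEP, an aspartyl aminopeptidase, 4.29% and 13.2%.

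Gene classes were counted on 28 lists, of which 22 had a member region, and 86 of the 300 regions were on a list. Under the rule as given, respiratory chain and ATP synthase genes gave the most, 20 of their 71 eligible regions (28.2%), a count that was 12 by conversion rate. Without the limit on multimapped reads they gave 17 and ribosomal proteins 26. The eligible respiratory chain regions had a median share of 6.60%. Complex I gave 13 of 34 regions, complex III 3 of 8, complex IV 2 of 10 and ATP synthase 2 of 16, and the single region of complex II was outside. COX4I1 (3.22%), a subunit of cytochrome c oxidase, UQCRH (3.49%), the hinge protein of complex III, ATP5D (3.62%), of the ATP synthase stalk, and NDUFB8 (3.69%), an accessory subunit of complex I, were lowest. None of the 65 regions of mitochondrial ribosomal proteins was a member, and their median was 15.1%, close to that of all eligible regions.

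Cytosolic ribosomal proteins gave 11 of 48 regions (22.9%), and their eligible regions had a median share of 6.55%. RPL37A, of the large subunit, was lowest, at 2.98%, 4.59% and 3.45% in G1, 2.58%, 2.63% and 3.10% in Early_S, 1.40%, 1.76% and 1.54% in Late_S, and 1.60%, 2.03% and 1.67% in G2, from 326095 reads in a region 4055 bases before the gene's end. Each of its G1 and Early_S values was above each of its Late_S and G2 values. RPS3 followed with regions of 2.92% and 3.75%, then RPL30 (3.88%). Ribosomal protein genes have many processed copies, and without the limit on multimapped reads 26 of the 300 lowest regions would be on this list. RPLP1 (4.71%), RPL27A (4.32%), GAPDH (4.55%) and the hair keratin KRT81 (4.18%) had the most reads of all members, from 856705 to 1795668.

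Lysosomal genes gave 7 of 34 regions, among them HEXA (4.05%), a lysosomal glycosidase, GAA (3.46%), the acid alpha-glucosidase, and the tetraspanin CD63 (3.55% and 5.00%). Antioxidant and thiol enzymes gave 5 of 23, with GLRX3 (2.59%), GPX4 (3.15%), which reduces lipid peroxides, GSTP1 (3.62%) and PRDX2 (3.85%). Extracellular matrix genes gave 5 of 32, all of them collagen chains, with COL6A2 at 2.61% and 4.18%, COL5A1 at 3.5% and COL6A1 at 4.19%. Smaller counts came from actin regulators (4 of 43, CAPG at 2.93% and MYL9 at 3.93%), cytosolic chaperones and prolyl isomerases (4 of 38, FKBP3 at 2.99% and PFDN5 at 3.77%), translation factors (3 of 26, EEF1D at 3.25%), splicing factors (3 of 43, HNRNPD at 3.87%), surface proteins (3 of 42, ANXA6 at 3.33%), metabolic enzymes (3 of 37, TALDO1 at 3.64%), mitochondrial import and carriers (3 of 31, MDH2 at 4.66%) and endoplasmic reticulum chaperones (3 of 34, CANX at 4.55%). The glycolytic list gave 2 of 13 (PFKL at 4.06% beside GAPDH), the proteasome 2 of 44 (PSMB6 at 2.47%) and chromatin proteins 2 of 19 (PTMS, or parathymosin, at 2.83%). UBA1, PHGDH, FBL, VARS, DCTN3 and ZNF358 were single members of their lists.

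Of the 28 lists, 6 had no member, and their median shares ranged widely. Immediate early genes had 0 of 19 regions and a median of 76.2%, p53 targets 0 of 14 and 41.2%, G2/M and spindle genes 0 of 42 and 27.4%, cholesterol synthesis 0 of 18 and 15.7%, and replication and E2F target genes 0 of 39 and 13.1%. Zinc finger genes had a median of 42.7% and still 1 member, ZNF358, of 59 regions. MYBL2, a transcription factor of proliferating cells that was on no list and was noted after its values were seen, was a member (3.13%).

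**Figure D4:**
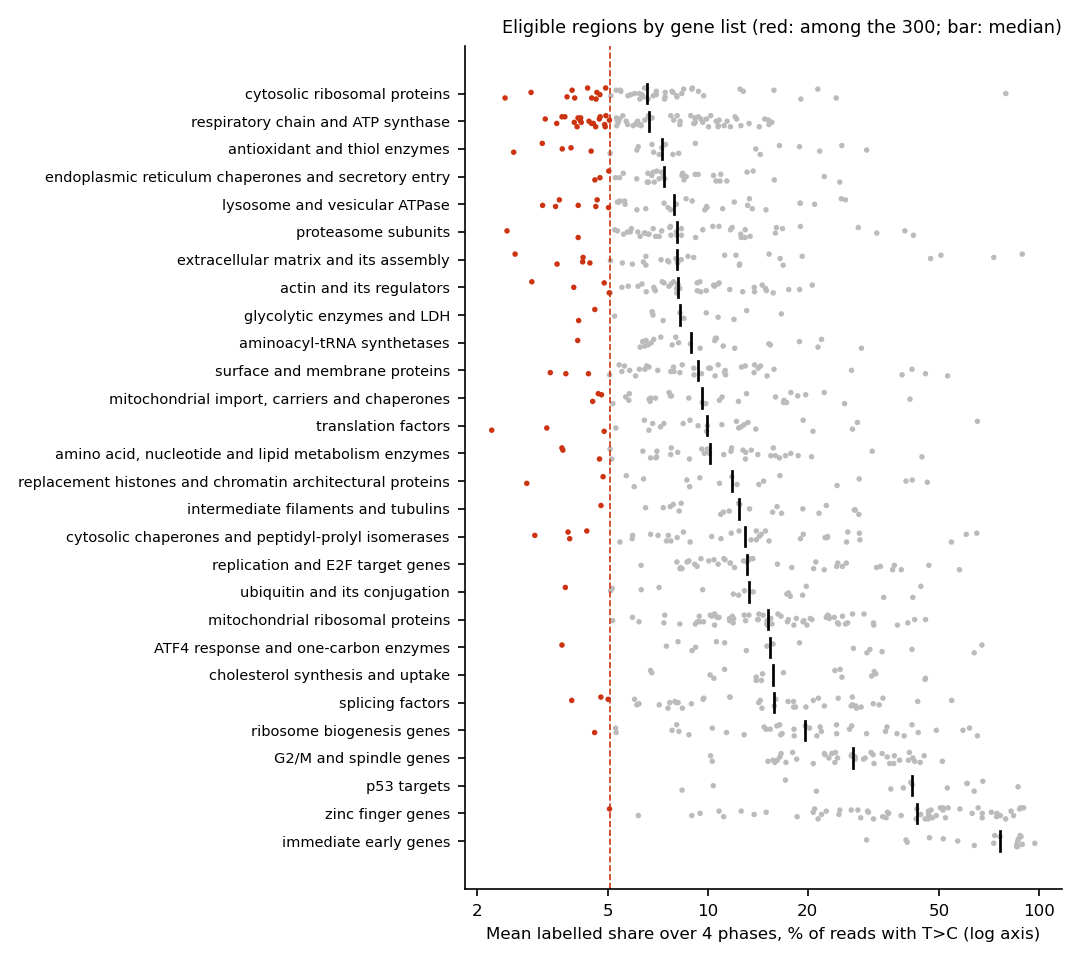
Mean labelled share over the 4 phases (log axis) of the eligible regions on each of 28 gene lists, each point a region, with members of the 300 in red, the list's median as a black bar and the highest member share, 5.04%, as a dashed line. Lists are ordered by median, from ribosomal protein and respiratory chain genes at the top to immediate early genes at the bottom.

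The members had their highest labelled shares in G1 and their lowest in Late_S and G2, the order that eligible regions also had. The median member had a share of 6.14% in G1 and a share of 4.73% in Early_S. In Late_S it had 2.51% and in G2 2.60%, so Late_S and G2 stood at 41.0% and 42.3% of G1, where the eligible medians of 24.0%, 18.8%, 8.82% and 8.88% gave 36.8% and 37.0%. The highest phase was G1 in 205 members (68.3%), Early_S in 89, and Late_S or G2 in 3 each. The spread between libraries was wide, with a median coefficient of variation of 30.8% in G1 and 34.8% in Early_S, and of 46.5% in Late_S and 52.9% in G2, beside 14% to 26.6% over eligible regions. The model of labelled against other reads scaled each kind of read by its own totals and TMM factors. It thus asked whether a region's share moved differently from the bulk of regions, not whether it moved at all. By this model 40 of the 300 regions were called across phases. Of the 18803 regions tested 9.48% were called, and of eligible regions 22.7%. The choice of regions touches the count of 40, and nothing is read from it.

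In 46 members (15.3%) all G1 and Early_S libraries lay above all Late_S and G2 libraries, which held for 58.1% of eligible regions. The 3 G1 libraries lay above the other 9 in 59 members, where 28.5% of eligible regions did so, and the 59 included GAPDH, KRT81, RPL27A, RPLP1, VARS and AKT1. GAPDH, the glycolytic dehydrogenase, had 7.10%, 6.99% and 7.21% in G1, 4.12%, 4.27% and 3.99% in Early_S, 3.15%, 3.12% and 3.39% in Late_S, and 4.13%, 3.53% and 3.56% in G2. Its Late_S libraries were the lowest, and without alkylation it had 0.374% ± 0.0431 (SD, n = 3). NCAM1, a neural cell adhesion molecule, had a steeper course, from 13.2%, 8.51% and 12.3% in G1 to 0.590%, 0.217% and 0.853% in G2, while its libraries without alkylation had 0.326%, 0 and 0.312%.

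In 15 members the 3 Early_S libraries lay above the other 9, where 7.83% of eligible regions did so. TAGLN, the actin-binding transgelin, had 10.8%, 11.6% and 9.16% in Early_S, against 3.41%, 3.12% and 5.38% in G1, 2.51%, 2.48% and 2.50% in Late_S, and 2.83%, 1.61% and 2.61% in G2. MYL9, a regulatory myosin light chain, had 8.68%, 6.44% and 11.2% in Early_S, against 1.5%, 1.64% and 4.29% in G1. PHGDH, the first enzyme of serine synthesis, had 7.24%, 7.61% and 6.17%, against 3.90%, 2.0% and 2.86% in G1. PTMS and COL6A2 were also among the 15. In PTMS and IFI6, an interferon-induced protein, the pooled G2 share exceeded that of G1, with ratios of G1 to G2 of 0.670 and 0.539.

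The 3 Late_S libraries lay below the other 9 in 11 members, beside 4.78% of eligible regions, among them GAPDH, COL6A1, PPIB, UBA1 and FBL, the fibrillarin of ribosome biogenesis. PPIB, a prolyl isomerase of the endoplasmic reticulum, had 3.75%, 3.52% and 3.49% in Late_S and 4.04%, 4.55% and 4.64% in G2. The G2 libraries lay below the other 9 in 8 members, beside 6.7% of eligible regions. MYBL2 was one of these, with 6.79%, 4.57% and 5.33% in G1, 2.93%, 3.39% and 3.39% in Early_S, 2.03%, 2.04% and 1.92% in Late_S and 1.68%, 1.78% and 1.72% in G2, so its phases did not overlap. G1 was below the rest in 0 members (0.141% of eligible regions) and Early_S in 0 (0.0176%), and neither Late_S nor G2 was above the rest in any member or eligible region.

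The share of ribosomal protein regions differed less between G1 and G2 than that of all eligible regions, a trait that some other lists shared. The ratio of G1 to G2 share had a median of 1.77 in the 11 members and 1.74 in the 48 eligible regions of that list, beside 2.26 in the 300 and 2.43 in all eligible regions, and with the share of the libraries without alkylation subtracted it was 1.91, 1.84, 2.53 and 2.55. By the share in Late_S or in G2 alone, only 3 of the 300 lowest regions would be ribosomal protein regions. Eligible endoplasmic reticulum chaperone regions had a median ratio of 1.73 and immediate early genes 1.13. Among members, the 3 of mitochondrial import and carriers had 1.27 and the 3 endoplasmic reticulum chaperones 1.46. Other lists had higher ratios, with a median of 2.38 in the 20 respiratory chain members and 3.41 in eligible replication and E2F target regions. Members over 100000 reads, 21 regions, had a median of 2.04, close to the 2.06 of all eligible regions that deep. The highest ratios were in ERGIC2 (68.6), AK5 (32.6), NCAM1 (20.9) and GALNT16 (16.6), whose pooled G2 shares of 0.180%, 0.329%, 0.540% and 0.255% stand beside 0.754%, 0, 0.235% and 1.07% without alkylation.

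Most members whose steady-state level was called across phases had their highest mean level in Early_S. All 300 passed the filter on low counts, and edgeR's quasi-likelihood test across the 4 phases called 113 (37.7%) at an adjusted p of 0.05, where 18.9% of the 22836 regions tested and 47.5% of the eligible regions were called. Of the 113, 70 (61.9%) had their highest mean level in Early_S, 34 in G1, 6 in Late_S and 3 in G2, while of the 2691 eligible regions called 28.8% were highest in Early_S and 22.6% in G2. The lowest level was in G2 for 62 of the 113 (54.9%), beside 24.1% of the eligible regions called. Levels are CPM after TMM scaling.

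From G1 to Early_S, 60 members rose and 8 fell. Over all regions tested 12.8% were called, 6.32% higher and 6.43% lower, and over eligible ones 16.2% and 17.0%. Of the members 22.7% were called, 20% higher and 2.67% lower, fewer in all than the 33.2% of eligible regions. The median log2 change was 0.17 in the members, -0.01 in all regions tested and -0.01 in eligible ones. The 123 members whose libraries did not overlap between these phases stand beside 28.4% of all regions tested. The called changes exceeded 2-fold in 6 members, beside 3.76% of eligible regions.

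CEP78, a centrosomal protein, rose most, from 33.1, 42.1 and 30.4 CPM in G1 to 84.7, 89.8 and 93.4 in Early_S, and had 68.0, 88.0 and 77.4 in Late_S and 61.5, 72.0 and 71.0 in G2. G1 did not overlap with any other phase, and the log2 change to Early_S was 1.34 (SE 0.14, edgeR adjusted p = 1.09e-08). HSD17B4, of peroxisomal beta-oxidation, rose by 1.18 on the log2 scale, ALDH5A1, a mitochondrial aldehyde dehydrogenase, by 1.08, ITSN1 by 1.01 and TIMMDC1, an assembly factor of complex I, by 0.95. TAGLN went from 206, 197 and 208 CPM to 342, 303 and 314, and had 288, 275 and 273 in Late_S and 283, 278 and 259 in G2 (log2 change to Early_S 0.65, SE 0.08, edgeR adjusted p = 3.33e-07). GAPDH went from 8169, 7016 and 7195 CPM to 9783, 8783 and 8968, a log2 change of 0.30 (SE 0.04, edgeR adjusted p = 1.00e-05), and had 7852, 7634 and 7736 in Late_S. KRT81, PFKL, PHGDH, MYL9, EIF4EBP1 and H2AFV, a replacement histone, also rose, by 0.31 to 0.70 on the log2 scale.

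Among the 8 members that fell between G1 and Early_S were a neurofilament chain, a collagen chain and a tetraspanin. NEFL fell from 70.0, 50.7 and 79.5 CPM to 40.0, 25.1 and 29.9 (log2 change -1.07, SE 0.19, edgeR adjusted p = 0.000115). GLRX3 (-0.88), FOLR1 (-0.86), the folate receptor alpha, COL6A1 (-0.67) and CD63 (-0.57) fell as well. On the lists, 2 of 7 lysosomal and 2 of 5 extracellular matrix members fell, beside 13 of 34 and 12 of 32 eligible regions of these lists, and both glycolytic members rose, beside 6 of 13 eligible regions. Nothing particular to the members is read from these counts.

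**Figure D5:**
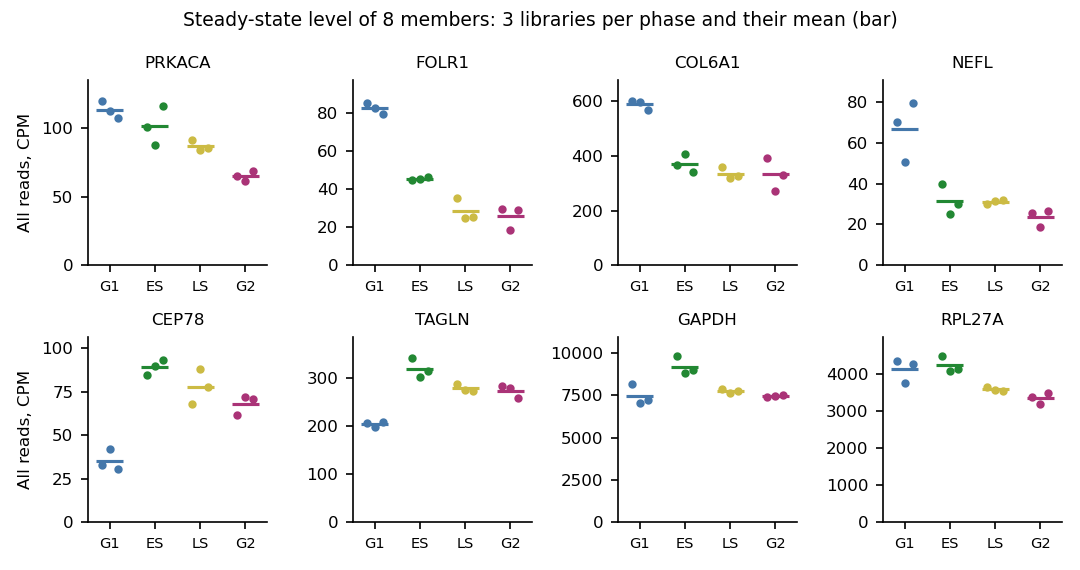
Steady-state level (all reads of the region, TMM-scaled CPM, axes from 0) of 8 members in the 3 libraries of G1, Early_S (ES), Late_S (LS) and G2, with the mean of 3 as a bar. PRKACA is lowest in G2, FOLR1, COL6A1 and NEFL are highest in G1, CEP78 is lowest in G1, TAGLN and GAPDH are highest in Early_S, and RPL27A is lower in Late_S and G2.

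From Early_S to Late_S, 22 members fell and 1 rose, where 5.25% of all regions tested were called, 1.73% lower and 3.52% higher. Of the members 7.67% were called, fewer than the 14.5% of eligible regions, of which 4.62% were lower and 9.86% higher. The 90 members (30%) whose libraries did not overlap stand beside 22.3% of all regions tested. Of the 11 ribosomal protein members 4 fell, beside 15 of 48 eligible regions of that list, among them RPL27A (log2 change -0.24, edgeR adjusted p = 0.00249) and RPLP1 (-0.20, edgeR adjusted p = 0.00786), and GAPDH fell by 0.25, KRT81 by 0.19 and EEF1A2 by 0.30 on the log2 scale. The count was 12 without Early_S replicate 1, 15, 13 and 11 without Late_S replicates 1, 2 and 3, and 54 with DESeq2, of which 52 were lower. METTL26 (log2 change -0.49, edgeR adjusted p = 0.00675) was not called without Early_S replicate 2 (adjusted p = 0.0687). FOLR1 (-0.68, edgeR adjusted p = 0.0127) was not called without Late_S replicate 2 or 3, with adjusted p of 0.0692 and 0.0744. HCFC1R1 (-0.40, edgeR adjusted p = 0.0177) was not called without Early_S replicate 1 (0.227), Late_S replicate 2 (0.0548) or Late_S replicate 3 (0.0887). None was called from Late_S to G2 by edgeR, where 0.0307% of all regions tested were, 0.0175% higher in G2 and 0.0131% lower. The unadjusted edgeR p was under 0.05 in 39 members, and DESeq2 called 3, all lower in G2. The shares of all regions at that p or called by DESeq2 are not given here. Nothing is therefore read from the 39 or from the counts by DESeq2 in either contrast. Between Late_S and G2 the libraries of 54 members (18%) did not overlap, beside 12.8% of all regions tested.

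Between G1 and G2, 48 members were higher in G1 and 18 lower, where 11.7% of all regions tested were called, 5.95% higher and 5.73% lower. Of the members 22% were called, fewer than the 28.6% of eligible regions, of which 14.3% were higher and 14.3% lower. The 117 members (39%) whose libraries did not overlap stand beside 27.8% of all regions tested. FOLR1 differed most, with 85.1, 82.6 and 79.5 CPM in G1, 44.7, 45.2 and 46.1 in Early_S, 35.1, 24.8 and 25.1 in Late_S, and 29.5, 18.5 and 28.9 in G2. Its G1 libraries lay above all others, and the log2 difference from G2 was 1.68 (SE 0.17, edgeR adjusted p = 7.54e-09). NEFL (1.5), COL6A1 (0.82) and PRKACA (0.79), a catalytic subunit of protein kinase A, were also higher in G1. ITSN1 (-1.12), CEP78 (-0.95) and ARNTL2 (-0.67), a circadian transcription factor, were lower. Among the lists, 5 of 11 ribosomal protein, 3 of 20 respiratory chain, 3 of 7 lysosomal and 3 of 5 extracellular matrix members were higher in G1, and none of these was lower. Of the eligible regions of these lists, 20 of 48, 14 of 71, 13 of 34 and 13 of 32 were higher. APEX1 (log2 difference -0.79, edgeR adjusted p = 0.0144) was not called without G2 replicate 1, with an adjusted p of 0.0670.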

How the data were processed

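Reads had been counted by the authors in 3' end regions with slamdunk 0.2.4 against regions of an Ensembl release 90 annotation, per the file headers, and the build was hg38, per the submitters' processing notes. For the aligner settings and the conversions that made a T>C read, nothing was stated in the labels or headers. The deposited counts are whole reads, T>C reads, multimapped reads and covered and converted T positions per region. The deposited CPM values and the conversion rate, a fraction deposited by the authors, were only checked, and rates were recomputed from counts.

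The labelled share is T>C reads over all reads, pooled per phase and averaged over 4 phases. Steady-state counts of 22836 regions (filterByExpr, minimum count 10, minimum total 15) were fitted with edgeR 4.0.16 (limma 3.58.1, R 4.3.3), quasi-likelihood test, TMM scaling, 12 alkylated libraries and Benjamini-Hochberg adjustment, and called under 0.05. Labelled and other reads were fitted in 1 model with phase by kind of read (18803 regions). Each kind was scaled by its own totals and TMM factors, which takes out the shift in share common to most regions. Counts for G2 against Late_S were simulated in 22836 regions, with the same assumed spread for every region and changes only in regions of at least 5000 reads. Of regions changed 1.5-fold 48% were recovered, and of those changed 0.5-fold 99%, with 11 false calls. Recovery at the spread of these data was not tested. Alternatives were DESeq2 1.42.0, RLE size factors, no filter, multimapped reads removed, a replicate block, each library left out, and other limits of the rule.

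The named regions are the 12 lowest, 3 on each side of the limit, up to 5 each way with the largest called change without overlap in each contrast, up to 4 lowest of each list, up to 6 with the widest gap to another region of the gene, the 4 highest and lowest ratios of G1 to G2, the extremes of T positions per read and the 4 with the most reads. Other names were chosen after their values were seen. The members, gene lists and tests were chosen with earlier results of these data known. Promoter windows are from RefSeq (GRCh38.p14), which listed 234 member genes. Some members that the naming rule covers are not reported here.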

Additional observations from a re-analysis of the deposited data

How the results depend on the processing

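Of the 300 regions, 226 were again chosen by conversion rate, 261 with the background subtracted, 264 with the limit on background at 1% and 297 at 5%, and 209 by G1 alone. A minimum of 10000 reads left 178, which is the number of members with that many reads, so this count restates the filter. The choice moved most with a minimum of 2500 reads (194 shared) and with the share in Early_S (192), Late_S (176) or G2 (171) alone, and it held 267 to 298 regions with each library left out. Respiratory chain regions numbered 20 by the share and 12 by the rate.

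Steady-state counts of called members ran, with each library left out, from 92 to 114 across phases, 51 to 70 for Early_S against G1, 11 to 29 for Late_S against Early_S, 0 to 0 for G2 against Late_S and 46 to 72 for G1 against G2. DESeq2 called 54 for Late_S against Early_S, where edgeR called 23, and 3 for G2 against Late_S. The share of all regions that DESeq2 called is not given here. The model of labelled reads called 36 to 49 members with each library left out, 175 with both kinds of reads scaled by all reads and 18 on T positions. Among the members named for the largest called changes in each steady-state contrast, no direction reversed under the alternatives run. Other members were not checked for this.

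Deviations from the phase mean had a median correlation of 0.00606 over 18 pairs of libraries with the same replicate number (highest 0.0358). Counting noise enters these correlations, so they do not settle whether the numbers pair the libraries. The replicate block gave 126, 72, 31, 0 and 75 steady-state calls in the order above, beside 113, 68, 23, 0 and 66 without it. For the labelled reads it gave 61, beside 40. Zero values in the 12 lowest regions rest on 373 to 1348 reads in a library, which limits how low a share can be read.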
